A study of Rattus norvegicus with 6 samples.

Results

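Transcripts of complement components and receptors were followed in regenerated rat sciatic nerve. The 9 genes chosen by symbol were C1qa, C1qb, C1qc, C2, C3, Cfp, Serping1, C3ar1 and C5ar1. Of these, 7 were found among the 23091 genes of the table by an exact match of the symbol, and C2 and C5ar1 were not analysed here. Messenger RNA came from male Sprague-Dawley rats of wild-type genotype with a sciatic nerve defect, whose age and time after surgery the labels do not give. The controls (NC, 3 libraries) had their wound closed with no treatment. In the other group (3 libraries, called implant 1 to implant 3) GDNF-Gel/HA-Mg was placed in the defect, where GDNF is glial cell line-derived neurotrophic factor. All 6 samples thus carried the nerve defect, and neither uninjured nerve nor a group with the material but without GDNF was analysed here. Separate animals are not stated for the libraries. The p-values therefore cover the spread of these samples alone, which may be technical.

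Complement is a cascade of blood and tissue proteins that tags debris, microbes and injured cells for removal. C1q, built of A, B and C chains, recognises targets and starts the classical pathway through the proteases C1r and C1s. C4 and C2 then form the enzyme that cuts C3, the point at which the classical, lectin and alternative pathways meet. Properdin (Cfp) stabilises the C3-cutting enzyme of the alternative pathway, and the C1 inhibitor (Serping1) blocks C1r, C1s and the MASP proteases. The fragments C3a and C5a act on receptors of myeloid cells, among them C3ar1 and C5ar1. In an injured nerve, complement is known for marking myelin debris for uptake by macrophages, which are themselves a main source of C1q.

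The C1q genes are neighbours in the rat genome in the order C1qb, C1qc, C1qa, per the RefSeq annotation of GRCr8. The promoter table of RefSeq (GRCr8, 250 bases before to 50 after the start site) held 5 of the 9 genes, and those of C1qa, C1qb and C3 are shown because C1qa and C1qb varied together over the libraries while C3 varied apart from them. The C1qa window is chr5:154419884-154420183, that of C1qb is chr5:154407778-154408077 and that of C3 is chr9:2201290-2201589, all on the minus strand. Each is printed 5′ to 3′ with matches to any of 4 motifs in capitals:
C1qa promoter: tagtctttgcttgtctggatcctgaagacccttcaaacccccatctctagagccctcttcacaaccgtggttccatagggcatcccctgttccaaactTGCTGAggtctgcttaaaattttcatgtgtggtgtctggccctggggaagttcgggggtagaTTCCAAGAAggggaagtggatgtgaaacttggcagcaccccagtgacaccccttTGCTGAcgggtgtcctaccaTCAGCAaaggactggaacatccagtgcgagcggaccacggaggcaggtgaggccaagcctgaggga
C1qb promoter: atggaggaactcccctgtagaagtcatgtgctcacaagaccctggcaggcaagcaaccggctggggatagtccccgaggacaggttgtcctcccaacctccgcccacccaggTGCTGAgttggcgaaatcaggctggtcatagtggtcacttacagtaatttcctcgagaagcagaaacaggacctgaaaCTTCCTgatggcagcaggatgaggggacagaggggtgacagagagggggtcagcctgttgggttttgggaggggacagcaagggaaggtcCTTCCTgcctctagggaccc
C3 promoter: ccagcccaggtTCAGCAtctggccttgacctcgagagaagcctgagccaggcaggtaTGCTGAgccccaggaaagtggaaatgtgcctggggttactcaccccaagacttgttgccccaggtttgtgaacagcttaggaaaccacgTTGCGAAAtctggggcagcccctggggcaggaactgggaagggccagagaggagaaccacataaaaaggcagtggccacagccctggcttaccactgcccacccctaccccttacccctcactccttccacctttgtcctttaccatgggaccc
The letters searched on both strands were AGGAAG (ETS core), TGCTGA (MAF core), TTGCNNAA (C/EBP) and TTCNNNGAA (STAT). The MAF core lay at positions -152, -36 and -16 from the start site of C1qa, at -138 of C1qb and at -239 and -193 of C3, and 18.4% of all 33465 full-length promoter windows hold it. C1qa also held a STAT match at -90 (8.88% of windows), C1qb held 2 ETS cores at -60 and 31 (34.5%), and C3 held a C/EBP match at -104 (10.6%). In these windows no match overlapped another. These are matches of letters and do not show that a factor was bound.

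Total counts ranged from 15897850 to 18491379 per library. All 7 genes passed the filter on low counts, which 13999 genes passed. Levels are given in CPM, counts scaled to the library size after TMM, and are compared within a gene only, since transcript lengths were not used here. The Schwann cell genes Sox10, Mbp and S100b were detected in every library. Sox10 was far lower in NC 3, at 21.8 CPM, than in the other libraries, at 122 to 243 CPM. Cdh19, Erbb3 and Ngfr were also lowest in NC 3, at 23.7, 66.9 and 43.7 CPM. Mbp and S100b did not share this low. In NC 3 Mbp stood at 420 CPM within a range of 266 to 6100 CPM, and S100b at 571 CPM within a range of 190 to 752 CPM. The summed level of 6 Schwann markers ranged from 1147 to 7709 CPM in NC and from 1157 to 3972 CPM in the implant group. Mbp made up most of this sum in NC 2, implant 1 and implant 3, at 6100, 2526 and 3085 CPM. The summed levels of other marker lists are given here once, because they differ between the libraries. Red cell markers ranged from 9478 to 331565 CPM in NC and from 76934 to 156570 CPM in the implant group, and haemoglobin took 25.2% of the counts of NC 3. Fibroblast markers ranged from 22263 to 30071 and from 18514 to 26445 CPM, endothelial markers from 910 to 1987 and from 1325 to 1619 CPM, and adipocyte markers from 1587 to 11065 and from 1901 to 3029 CPM. Neutrophil markers ranged from 55.7 to 349 and from 226 to 358 CPM, mast cell markers from 79.8 to 158 and from 53.1 to 101 CPM, and skeletal muscle markers from 26.6 to 1209 and from 75.6 to 7471 CPM. In bulk tissue, fewer cells of a type and less RNA per cell cannot be told apart.

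The comparison asked whether complement transcripts differed between nerve that regenerated with the implant and nerve that regenerated without it. No complement gene was called. By edgeR's quasi-likelihood test with Benjamini-Hochberg adjustment over all 13999 genes, 0 of the 7 genes passed an adjusted p of 0.05, and the share of all genes called was 0%. DESeq2 called 0 of the 7 as well, against 0.0786% of all genes, and limma-voom called 0. At an unadjusted p under 0.05, edgeR found 0 of the 7, against 1.72% of all genes. The groups overlapped in all 7 genes, while they did not overlap in 5.69% of all genes. Of the 7 genes 3 had a positive and 4 a negative log2 fold change, with a median of -0.05, and the median over all genes tested was -0.01.

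**Figure D1:**
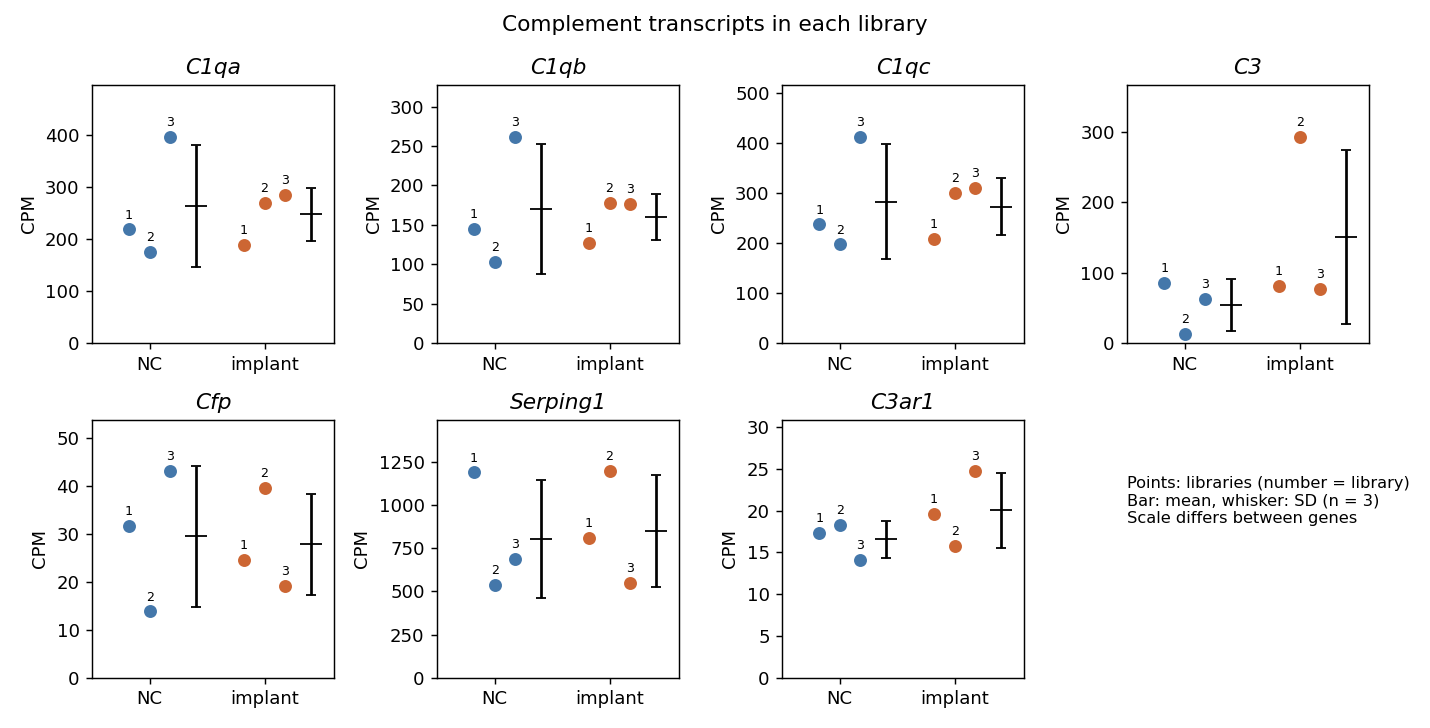
Level of each complement gene in CPM (vertical axis, own scale for each gene) in the 3 NC and 3 implant libraries. Points are libraries with their number, bars are means and whiskers SD (n = 3). The groups overlap in every panel, NC 3 is highest for the 3 C1q chains, and implant 2 stands at 294 CPM for C3.

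The C1q chains, which recognise targets of the classical pathway, varied together from library to library and not with the group. C1qa (ENSRNOG00000012807), the A chain, stood at 218, 175 and 396 CPM in NC 1 to NC 3, in that order, against 189, 268 and 284 CPM in implant 1 to implant 3. NC 3 was thus highest and NC 2 lowest, with all implant libraries between them. The B chain, C1qb (ENSRNOG00000012749), measured 145, 103 and 262 CPM in NC against 127, 178 and 176 CPM in the implant group. C1qc (ENSRNOG00000012804), the C chain, measured 237, 197 and 412 CPM in NC against 207, 299 and 310 CPM in the implant group. Both chains had the same highest and lowest library as C1qa, and the span from lowest to highest was 2.26-fold for C1qa, 2.54-fold for C1qb and 2.10-fold for C1qc.

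Group means of the C1q chains lay close to each other. C1qa averaged 263 ± 117 CPM (SD, n = 3) in NC and 247 ± 51.2 CPM (n = 3) in the implant group. C1qb averaged 170 ± 82.5 and 160 ± 29.1 CPM, and C1qc 282 ± 115 and 272 ± 56.3 CPM. The log2 fold changes, implant minus NC, were -0.09 ± 0.34 (SE) for C1qa, -0.09 ± 0.36 for C1qb and -0.05 ± 0.32 for C1qc (edgeR adjusted p 1.0 for each). Their approximate 95% intervals were -0.93 to 0.75, -0.97 to 0.80 and -0.84 to 0.74 on the log2 scale, so that a 2-fold difference in either direction lay outside each. Without NC 3, the highest library, the log2 fold changes were 0.33, 0.37 and 0.33, and without implant 1 they were 0.07, 0.06 and 0.11, none called. The red cell and adipocyte marker sums were highest in NC 3 as well. With a haemoglobin covariate the log2 fold changes were -0.42, -0.42 and -0.36, none called (edgeR unadjusted p 0.071, 0.084 and 0.105). In that fit 1224 of all genes had an unadjusted p under 0.05, against 241 without the covariate. Beyond this fit, the part of red cells and adipocytes in the C1q levels was not tested.

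Each chain took a nearly constant part of the C1q counts. Of the counts of the 3 chains, C1qa took 36.4%, 36.9% and 37.0% in NC and 36.1%, 36.0% and 36.9% in the implant group, each with an exact binomial 95% interval about 1 percentage point to either side that covers counting error only (35.5% to 37.3% in NC 1). The C1qc share ranged from 38.5% in NC 3 to 41.4% in NC 2. That of C1qb ranged from 21.7% in NC 2 (95% interval 20.8% to 22.6%) to 24.5% in NC 3 (23.8% to 25.2%). Group means were 36.8 ± 0.333% and 36.3 ± 0.49% for C1qa, 23.5 ± 1.52% and 23.7 ± 0.698% for C1qb, and 39.8 ± 1.49% and 40.0 ± 0.288% for C1qc (NC and implant, SD, n = 3 each). These shares are of counts, not per length, so they do not give the ratio of the chains' molecules.

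Among the 11512 other genes whose mean log2 CPM was 2 or more, the pattern most like C1qc over the 6 libraries was that of C1qa (Pearson r 0.998 of log2 CPM). For C1qa, C1qc came second after Idh2, a mitochondrial dehydrogenase (r 0.999), and Tle5 followed (r 0.997). C1qb was ninth for C1qa, and its own nearest genes were Mrpl37, Arf5 and Timm23 (r 0.998, 0.996 and 0.995). With only 6 libraries, which share differences in depth and tissue makeup, many genes reach such values, and the correlations describe these libraries only.

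C1q was set beside macrophage genes, as macrophages are its known source. The summed level of 15 macrophage markers measured 2367, 2589 and 2714 CPM in NC against 3117, 2747 and 3600 CPM in the implant group, and the groups did not overlap. Lysozyme (Lyz2), a marker that monocytes also express, made up much of this sum, with 867, 1330 and 952 CPM in NC against 1662, 1111 and 1910 CPM in the implant group. Without Lyz2, a choice made after its values were seen, the other 14 markers summed to 1500, 1260 and 1762 CPM in NC and to 1455, 1636 and 1690 CPM in the implant group, and the groups overlapped. No marker of the list was called by edgeR, 11 of the 15 had a positive log2 fold change, and the median was 0.17.

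Markers within the macrophage list differed in how they followed C1q. Over the 6 libraries, the Pearson correlation of log2 CPM with C1qa was positive for 12 of the 15 markers and negative for 3, with a median of 0.70 and a range from -0.65 for Mpeg1 to 0.98 for Mrc1. With C3ar1 it was positive for 6 and negative for 9, from -0.52 for Ms4a7 to 0.85 for Lyz2. The share of all genes with a positive correlation was not computed. With the log2 sum of the macrophage list, C1qa had a Pearson r of only 0.17. With the sums of the other marker lists r was higher, from 0.37 (fibroblast) to 0.96 (hepatocyte), except for the Schwann list (-0.65). The hepatocyte sum was mostly transferrin (Tf), which other cells also express, at 634 of 653 CPM in NC 3. Mrc1, the mannose receptor of tissue macrophages, measured 188, 139 and 311 CPM in NC against 141, 196 and 225 CPM in the implant group, which is the order of the libraries for C1qa. Cd163, the haemoglobin scavenger receptor, stood at 76.3, 62.8 and 271 CPM in NC against 82.5, 129 and 148 CPM in the implant group. It too was highest in NC 3 and lowest in NC 2. Cd68, a lysosomal protein of macrophages, stood at 30.4, 48.2 and 43.8 CPM in NC against 48.1, 30.9 and 68.6 CPM in the implant group, and was lowest in NC 1 and highest in implant 3. Mpeg1, a pore-forming protein of macrophages, ran against C1q at 371, 228 and 147 CPM in NC against 321, 299 and 244 CPM in the implant group, lowest in NC 3. These 4 markers were picked after their values were seen. Per 1000 CPM of the whole macrophage list, C1qa measured 92.2, 67.6 and 146 in NC against 60.5, 97.7 and 78.9 in the implant group. Relative to these markers the groups overlapped too, with means of 102 ± 40.1 in NC and 79.0 ± 18.6 in the implant group (SD, n = 3 each), where 19.5% of all genes tested did not overlap on this ratio. Per 1000 CPM of the 14 markers other than Lyz2, the span of C1qa over the libraries was 1.74-fold, from 130 in implant 1 to 225 in NC 3.

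**Figure D2:**
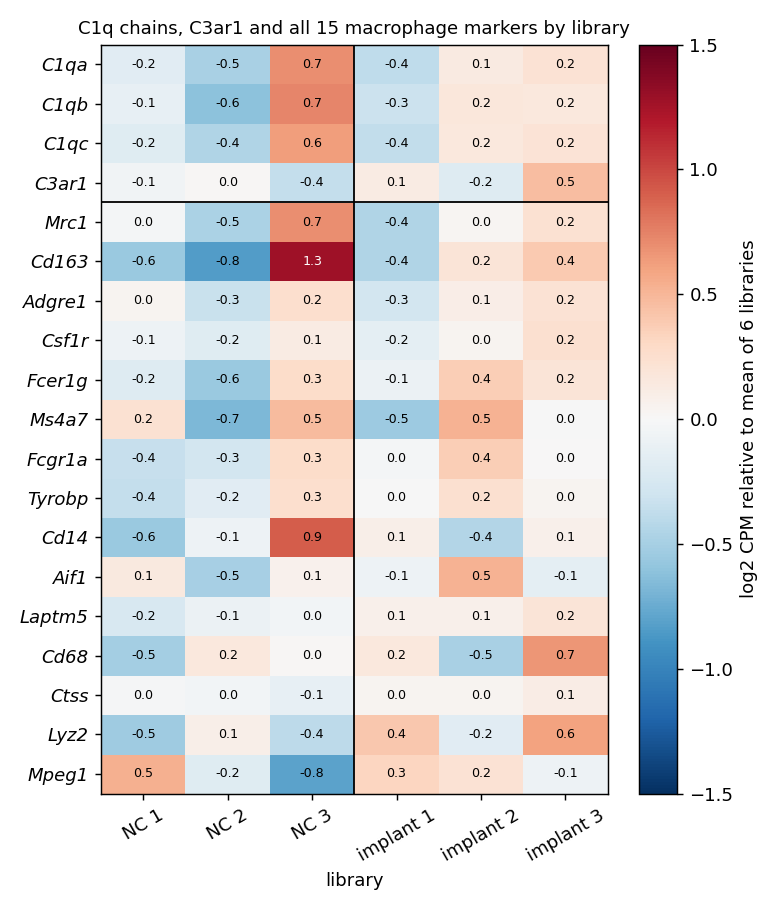
Log2 CPM relative to the mean of the 6 libraries (colour and printed value) for the C1q chains and C3ar1 (above the horizontal line) and all 15 macrophage markers (below it, ordered by their correlation with C1qa), with the libraries in columns and the groups split by the vertical line. Of the markers, 5 are highest in NC 3 as the C1q chains are, 5 in implant 3 as C3ar1 is, 4 in implant 2 and 1 in NC 1.

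The C1 proteases and C4, which act after C1q, were named for their role after their values were seen. C1r, the first protease of the C1 complex, measured 803, 542 and 635 CPM in NC against 765, 899 and 555 CPM in the implant group (log2 fold change 0.16 ± 0.25 SE). C1s, which C1r activates, measured 1386, 785 and 833 CPM in NC against 1354, 1433 and 863 CPM in the implant group (0.28 ± 0.32). Neither followed the order of C1q, as NC 3 was high for the C1q chains and not for the proteases. C4a and C4b are near-identical copies that can share reads, so their separate values are uncertain. C4a measured 3236, 647 and 3074 CPM in NC against 1956, 4236 and 1110 CPM in the implant group, and C4b measured 2259, 690 and 4098 CPM against 1644, 3800 and 1472 CPM. For both, NC 2 was lowest. Their log2 fold changes were 0.07 ± 0.73 and -0.03 ± 0.70, and without implant 2 they were -0.60 and -0.59.

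Over the list of recognition molecules and classical or lectin proteases, 13 of 17 symbols were tested, C1q chains included. None was called by edgeR, 7 had a positive and 6 a negative log2 fold change, and the median was 0.02. Masp1 (ENSRNOG00000001827), a protease of the lectin pathway, was the only gene of the 31 other complement genes tested whose groups did not overlap, where 5.69% of all genes did not. It stood at 34.9, 23.5 and 24.8 CPM in NC against 45.2, 50.3 and 35.5 CPM in the implant group. The highest NC library lay just under the lowest implant library. Its log2 fold change was 0.65 ± 0.21 (SE), with an approximate 95% interval of 0.14 to 1.17, but it was not called (edgeR unadjusted p 0.021, adjusted p 1.0, and 0.508 to 1.0 over the alternatives run). The ficolins, which bind sugars and acetyl groups, had log2 fold changes of -0.70 ± 0.56 for Fcna and 0.67 ± 0.39 for Fcnb. Fcna stood at 60.3, 38.3 and 161 CPM in NC against 39.9, 74.7 and 45.3 CPM in the implant group, so that its difference rested on NC 3, without which it was 0.11. Colec12, a scavenger collectin, had a log2 fold change of -0.22 ± 0.23.

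C3, the component on which the pathways converge, had the widest spread of the 7 genes. C3 (ENSRNOG00000046834) stood at 85.2, 12.8 and 63.0 CPM in NC against 81.7, 294 and 76.5 CPM in the implant group. The highest level, in implant 2, was 22.9 times the lowest, in NC 2, and the other 4 libraries lay between 63.0 and 85.2 CPM. The SD of its log2 CPM over the 6 libraries was 1.45, at the 97.9th percentile of 11513 genes whose mean log2 CPM was 2 or more. That of C1qa was 0.44, at the 78.3rd percentile. C3 averaged 53.7 ± 37.1 CPM in NC and 151 ± 124 CPM in the implant group (SD, n = 3 each). The log2 fold change of 1.49 ± 0.83 (SE) had an approximate 95% interval of -0.53 to 3.51 and was not called (edgeR unadjusted p 0.121, adjusted p 1.0). Without implant 2 it was 0.56, and without NC 2 it was 1.02, so the size of the difference rested on single libraries.

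C3 was set beside the sums of the Schwann, neutrophil and macrophage lists. The Schwann marker sum was highest in NC 2, the library with the least C3, at 7709 CPM, while implant 2, at 1157 CPM, lay beside NC 1 and NC 3 at 1388 and 1147 CPM. The neutrophil sum was lowest in NC 2, at 55.7 CPM, and at 358 CPM in implant 2 it was close to the 356 and 349 CPM of implant 3 and NC 3, where C3 was not high. The macrophage sum was 2747 CPM in implant 2 and 2589 CPM in NC 2. The part of these cell types in the C3 levels was not tested. Per 1000 CPM of the fibroblast list, C3 measured 2.99, 0.576 and 2.10 in NC against 3.66, 11.1 and 4.13 in the implant group. On this ratio every implant library lay above every NC library, unlike for the CPM itself, while the fibroblast sum was lowest in implant 3. Of all genes tested, 11.6% did not overlap between the groups on the same ratio. Set against the macrophage list in the same way, C3 measured 36.0, 4.96 and 23.2 in NC against 26.2, 107 and 21.2 in the implant group, and the groups overlapped. The liver is the main source of C3 in blood. Among hepatocyte markers, the fibrinogen chain Fga had 0 counts in every library and Ttr had 3 counts in implant 1 and 0 elsewhere. Albumin (Alb) lay between 0.867 and 17.0 CPM, and the list sum, from 277 to 653 CPM in NC and from 274 to 400 CPM in the implant group, was mostly transferrin (Tf), which other cells also express. The genes most like C3 in pattern were Psmb9, a subunit of the immunoproteasome, Rnpep and Il2rb, a receptor chain of lymphocytes (Pearson r 0.989, 0.987 and 0.987 over the 6 libraries).

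Transcripts of properdin and of the other proteins of the alternative pathway differed between libraries more than between groups. Cfp (ENSRNOG00000025811) stood at 31.7, 13.8 and 43.1 CPM in NC against 24.5, 39.7 and 19.2 CPM in the implant group. The libraries with the 3 lowest levels, NC 2, implant 3 and implant 1, had the 3 highest Schwann marker sums, which were mostly Mbp. These were also the 3 highest libraries for Mbp, Sox10 and Cdh19, but not for Erbb3, S100b and Ngfr. The part of this in the Cfp levels was not tested. Cfp averaged 29.5 ± 14.8 CPM in NC and 27.8 ± 10.6 CPM in the implant group, with a log2 fold change of -0.09 ± 0.46 (SE; approximate 95% interval -1.21 to 1.04; edgeR adjusted p 1.0). Its nearest genes in pattern were Lrp10, Plcb3 and Ifi27 (Pearson r 0.997, 0.996 and 0.996 over the 6 libraries).

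Factor B (Cfb), the protease of the alternative C3-cutting enzyme, measured 920, 380 and 1002 CPM in NC against 591, 1197 and 613 CPM in the implant group. It lies next to C2 in the annotation, and reads of neighbouring genes cannot always be told apart. Factor D (Cfd, adipsin), which cuts factor B and is abundant in fat, measured 1180, 414 and 2830 CPM in NC against 594, 1770 and 705 CPM in the implant group. For both, as for Cfp, NC 2 was lowest. Per 1000 CPM of the adipocyte list, Cfd measured 331, 261 and 256 in NC against 313, 584 and 283 in the implant group. Relative to adipocyte markers, implant 2 therefore stood apart and NC 3 did not. The log2 fold changes were 0.06 ± 0.46 for Cfb and -0.53 ± 0.76 for Cfd, and that of Cfd was 0.35 without NC 3. Of the list of C3 and the alternative pathway, 4 genes were tested, 0 were called, 2 were positive and 2 negative, with a median of -0.01.

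In the terminal pathway, whose proteins form a pore in membranes, 2 of 7 symbols were tested and 0 called, with a median log2 fold change of 0.06. C6 stood at 118, 53.2 and 257 CPM in NC against 95.2, 242 and 89.6 CPM in the implant group (0.00 ± 0.65). The level was lowest in NC 2, as for C3, Cfp, the C1q chains and Serping1 among others. C8g stood at 2.39 to 3.99 CPM in NC against 2.87 to 4.02 CPM in the implant group. C8a was at 0 counts in all libraries, and C8b and C9 each had a single count, in implant 3.

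**Figure D3:**
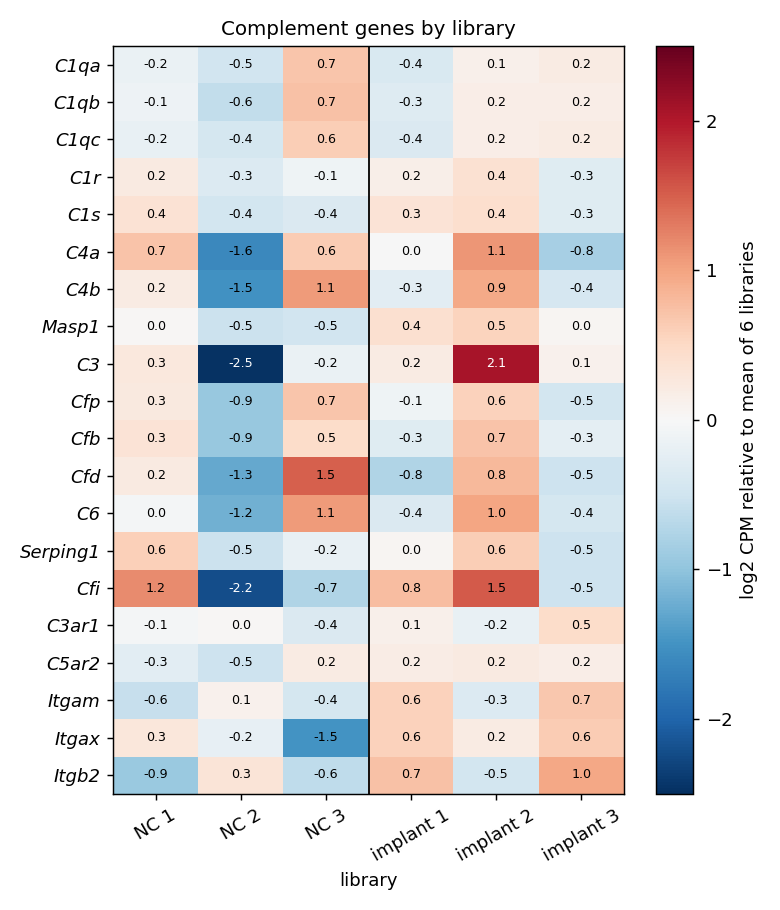
Log2 CPM relative to the mean of the 6 libraries (colour and printed value) for 20 complement genes in rows and the libraries in columns, with the groups split by the vertical line. All genes shown are lowest in NC 2 except C3ar1, Itgam, Itgax and Itgb2, and C3 reaches 2.1 in implant 2. The share of all genes lowest in NC 2 was not computed.

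Serping1, which encodes the C1 inhibitor, was expressed at a level that did not differ beyond the spread of the libraries. Serping1 (ENSRNOG00000007457) measured 1191, 538 and 687 CPM in NC against 811, 1197 and 551 CPM in the implant group. One library of each group, NC 1 and implant 2, reached about the same highest level. The means were 805 ± 342 CPM in NC and 853 ± 325 CPM in the implant group (SD, n = 3 each), and the log2 fold change was 0.08 ± 0.41 (SE; approximate 95% interval -0.91 to 1.07; edgeR adjusted p 1.0). Per 1000 CPM of the fibroblast list, it measured 41.8, 24.2 and 22.8 in NC against 36.3, 45.3 and 29.7 in the implant group, again with overlap. The genes most like it in pattern were Rapgef4, Pcolce, an enhancer of procollagen processing, and Cygb, a globin of fibroblasts (Pearson r 0.9997, 0.997 and 0.997 over the 6 libraries).

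Among 16 regulators, Serping1 included, 11 were tested and 0 called, with 6 positive and 5 negative and a median log2 fold change of 0.08. Factor I (Cfi), the protease that inactivates C3b and C4b, stood at 28.8, 2.72 and 7.59 CPM in NC against 21.8, 36.7 and 8.90 CPM in the implant group. As for C3, it was highest in implant 2 and lowest in NC 2, and its log2 fold change of 0.78 ± 0.90 was 2.13 without NC 1 and 0.22 without implant 2. C4bpa, a chain of the C4b-binding protein, had a log2 fold change of -1.85 ± 1.36, which was 0.42 without NC 3, where it stood at 40.8 CPM. Cd55, which speeds the decay of C3-cutting enzymes, and Susd4 had log2 fold changes of -0.21 ± 0.29 and 0.32 ± 0.35.

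C3ar1, the receptor of C3a on myeloid cells, had the narrowest spread of the 7 genes. C3ar1 (ENSRNOG00000009211) stood at 17.3, 18.3 and 14.1 CPM in NC against 19.6, 15.8 and 24.7 CPM in the implant group, from 195 to 419 counts per library. Implant 1 and implant 3 lay above every NC library, and implant 2 lay within the NC range. The means were 16.6 ± 2.18 CPM in NC and 20.0 ± 4.49 CPM in the implant group (SD, n = 3 each), with a log2 fold change of 0.27 ± 0.21 (SE; approximate 95% interval -0.23 to 0.77; edgeR unadjusted p 0.23, adjusted p 1.0). Without implant 3 it was 0.09, and without implant 2 it was 0.43. Per 1000 CPM of the macrophage list, C3ar1 measured 7.30, 7.05 and 5.19 in NC against 6.29, 5.74 and 6.86 in the implant group. On this ratio the implant libraries all lay inside the NC range. Without Lyz2 in the list, C3ar1 measured 11.5, 14.5 and 8.0 in NC against 13.5, 9.63 and 14.6 in the implant group. The groups overlapped here too, but implant 3 lay above the NC range, and the implant mean, below that of NC with Lyz2 in the list (6.30 and 6.52), lay above it without (12.6 and 11.3). Its nearest genes in pattern were Arrb1, a beta-arrestin, Mysm1 and Bnc2 (Pearson r 0.987, 0.975 and 0.974 over the 6 libraries).

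Of the 9 receptor symbols, 8 were tested and 0 called, 6 were positive and 2 negative, and the median log2 fold change was 0.37. Itgam and Itgb2 encode the chains of complement receptor 3, which takes up particles coated with C3 fragments, and Itgax pairs with Itgb2 in complement receptor 4. Itgam stood at 32.9, 53.1 and 36.6 CPM in NC against 73.2, 39.0 and 78.5 CPM in the implant group. Itgb2 stood at 44.2, 106 and 53.9 CPM in NC against 140, 61.0 and 164 CPM in the implant group. In both genes, as in C3ar1, implant 1 and implant 3 were the highest libraries. Itgax stood at 26.3, 18.7 and 7.66 CPM in NC against 32.4, 24.9 and 33.5 CPM in the implant group. The log2 fold changes were 0.64 ± 0.32, 0.84 ± 0.48 and 0.78 ± 0.43 for Itgam, Itgb2 and Itgax (edgeR unadjusted p 0.091, 0.127 and 0.118, adjusted p 1.0 for each). C5ar2, a second receptor of C5a, stood at 21.1, 17.7 and 29.3 CPM in NC against 28.6, 29.7 and 28.4 CPM in the implant group (0.35 ± 0.20). These integrins are shared by neutrophils, monocytes and macrophages. The neutrophil marker sum, at 66.5, 55.7 and 349 CPM in NC and 226, 358 and 356 CPM in the implant group, did not follow their order. Within that list Mmp9, like Itgam and Itgb2, was highest in implant 3 and implant 1, at 80.4 and 30.7 CPM. Csf3r, Cxcr2, S100a8 and S100a9 were instead highest in implant 2, at 41.5, 27.1, 42.2 and 205 CPM. Among the implant libraries, implant 2 was the lowest for Itgam and Itgb2. Of the macrophage markers, only Lyz2 had the library order of Itgam and Itgb2. These neutrophil markers and Lyz2 were picked after their values were seen, and the part of these cell types in the receptor levels was not tested.

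**Figure D4:**
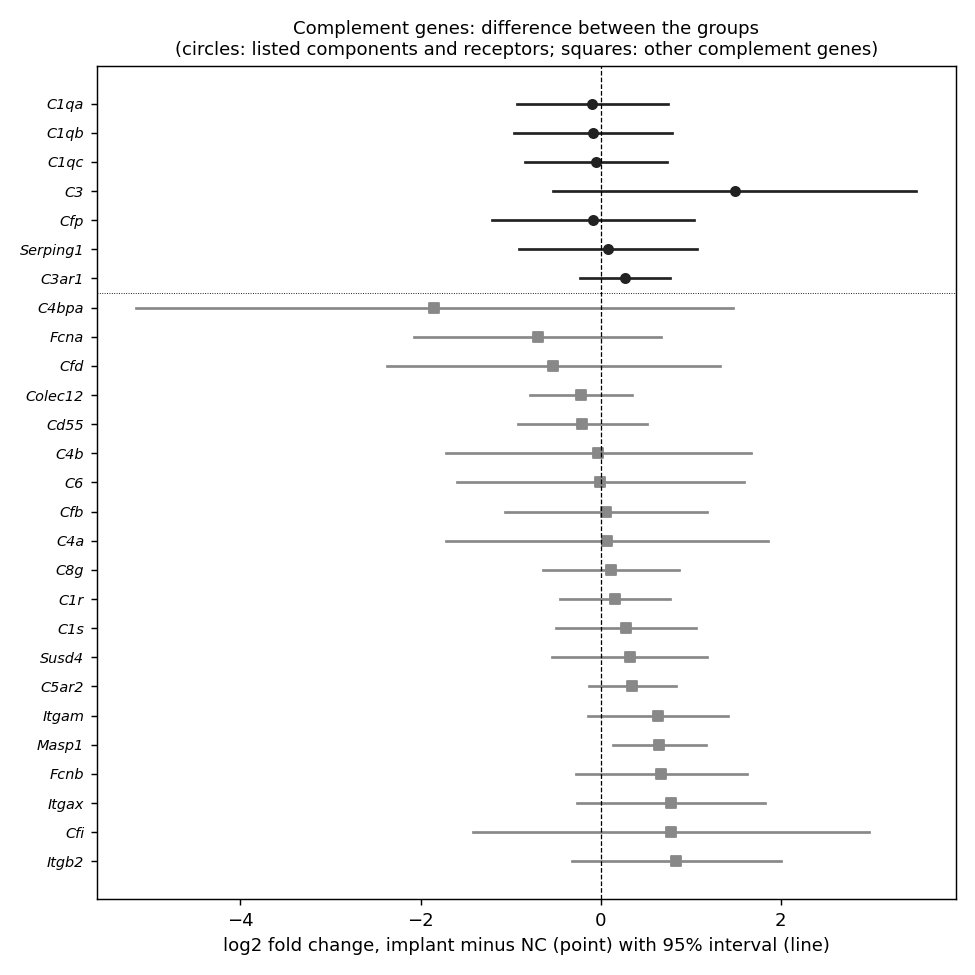
Log2 fold change, implant minus NC (horizontal axis, points) with its approximate 95% interval (lines), for the 7 complement genes (circles) and 20 other complement genes (squares). All intervals reach across 0 except that of Masp1, which runs from 0.14 to 1.17 and was not called.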

How the data were processed

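Libraries were prepared from poly(A)-selected RNA with a NEBNext Ultra RNA kit, per the labels' protocols, and this kit does not mark strand. Tools named in the submitters' processing notes are HISAT2, Bowtie2 2.2.8, DESeq2 and StringTie 1.3.1. For the counter, build and annotation, the sources used here give nothing. The values the authors deposited are estimated counts (expected counts) per gene without normalization, and they were rounded to whole numbers. Columns were matched to samples by name: Con to NC, and Gel_HA-Mg to GDNF-Gel/HA-Mg, the only group with that material. No 2 libraries agreed within sampling noise (chi-square per degree of freedom at least 86.4).

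Genes were filtered with filterByExpr (13999 kept), scaled by TMM and tested for the group term alone, two-sided, by quasi-likelihood in edgeR 4.0.16 (R 4.3.3). Calls needed a Benjamini-Hochberg adjusted p under 0.05. SE is the size of the log2 fold change over the square root of F. DESeq2 1.42.0, limma 3.58.1 (voom), other scalings and filters, a haemoglobin covariate, the replicate block and each library left out were alternatives. The test was tested on simulated data. Figures used matplotlib 3.10.9.

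The 9 genes and all lists (5 of complement genes, 10 of cell type markers) were chosen with earlier results of these data known. A few listed genes are not reported here and entered no list or sum. Outside the 7 genes found, up to 4 genes per complement list with the smallest unadjusted p and a mean of at least 1 CPM were named, with any whose groups did not overlap. For each of the 7 genes, the 3 with the highest Pearson correlation of log2 CPM (prior count 2) were named.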

Additional observations from a re-analysis of the deposited data

How the results depend on the processing

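The result of 0 of 7 complement genes called held under every alternative run, as did 0 of the 31 other complement genes tested (at an unadjusted p under 0.05 in edgeR, 0 and 1). The count over all 13999 genes was 0 in edgeR (241 at an unadjusted p under 0.05) and in limma-voom, 11 in DESeq2, and 0 with each library left out. For the 27 named genes, 368 of 405 recomputed log2 fold changes kept their direction and none was called. C3 and C3ar1 kept their direction in all 15 alternatives. With single libraries left out, the log2 fold change ranged from -0.31 to 0.33 for C1qa, from -0.34 to 0.37 for C1qb, from -0.25 to 0.33 for C1qc, from -0.43 to 0.28 for Cfp, from -0.24 to 0.48 for Serping1, from -0.60 to 0.42 for C4a, from -0.59 to 0.64 for C4b, from -1.05 to 0.11 for Fcna, from -0.35 to 0.29 for Cfb, from -1.18 to 0.35 for Cfd, from -0.63 to 0.72 for C6, from -0.043 to 0.36 for C8g, from -2.73 to 0.42 for C4bpa, from -0.42 to 0.17 for Cd55. For C3 the range was 0.56 to 1.99, for C3ar1 0.09 to 0.43 and for Masp1 0.54 to 0.85. With the haemoglobin covariate the direction changed for C4a (-0.15) and Cfb (-0.17), and the C1q chains stood at -0.42, -0.42 and -0.36. With limma-voom it changed for Cfp (0.016), C4b (0.15) and C6 (0.10), with upper quartile scaling (0.0069) and no filter (0.00058) for C6. With the replicate number as a block it changed for C1qb (0.0032), C4b (0.081) and C6 (0.061), and no gene was called. The deviations of same-numbered libraries from their group means had correlations of 0.0990, -0.718 and 0.0553. Those of libraries with different numbers ran from -0.607 to 0.517. With 3 libraries a group, these values cannot settle whether the numbers pair the samples. The cause of the changes in direction was not tested. By Spearman in place of Pearson correlation, the nearest genes of C1qa, C1qc, Cfp and C3ar1 tied at the highest rho of 1, with 26 to 152 genes at that value, while 68, 24 and 65 genes had a higher rho than those of C1qb, C3 and Serping1, so 6 libraries do not single out a nearest gene by rank. With 3 libraries a group, the SE of the log2 fold change ran from 0.21 for C3ar1 to 0.83 for C3 among the 7 genes.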
